A study of Homo sapiens with 16 samples.

Results

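The transcripts of 10 mitotic kinases and spindle checkpoint genes were followed in A375 melanoma xenografts treated with a BET bromodomain inhibitor, a BRAF inhibitor or both. The set was fixed by name from the function of its members and not by a cut on their values, but with earlier results of these data known. It holds the kinases AURKA, AURKB, PLK1 and TTK, the AURKB partners INCENP and CDCA8, and the checkpoint genes BUB1, BUB1B, BUB3 and MAD2L1. All 10 were listed among the 23260 gene symbols of the table, and all 10 passed the filter on low values, which kept 13426 symbols.

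The comparison asked how these transcripts changed when the BET inhibitor JQ1 and the BRAF inhibitor vemurafenib were given alone or together. JQ1 displaces BET proteins from acetylated chromatin, and vemurafenib blocks the mutant BRAF kinase that A375, an established human melanoma line, depends on. A375 cells grew as tumors in both flanks of severely immunodeficient NOG mice, and the tumors were removed on day 5 of treatment. The control group received vehicle (mice 2 and 5), J received 50 mg/kg JQ1 once daily (mice 26 and 29), V received 25 mg/kg vemurafenib 2 times a day (mice 16 and 19), and J+V received both drugs (mice 33 and 34), all by intraperitoneal injection. Each group therefore held 4 tumors from 2 mice, the left (L) and the right (R) tumor of each animal, and all 16 tumors came from the same cell line. The age of the mice was not given in the sources used here, and with 1 cell line the values describe A375 tumors only.

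Entry into mitosis and the segregation of chromosomes are driven by kinases of the Aurora, Polo and BUB families. AURKA and PLK1 act at centrosomes and spindle poles, whereas AURKB works in the chromosomal passenger complex at centromeres and the midzone. The spindle checkpoint, built by TTK, BUB1, BUB1B, BUB3 and MAD2L1, restrains the anaphase-promoting complex until each kinetochore is attached to microtubules. Most of these transcripts are known to accumulate in the G2 and M phases of dividing cells, many of them through promoters that carry a cell cycle genes homology region (CHR) next to CCAAT boxes.

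Transcript levels were given as FPKM, fragment numbers scaled to transcript length and library depth, on which levels of different genes can be compared. The table held no counts, so the depth behind each value is unknown, and FPKM summed to 970443 to 1406986 per tumor, of which small RNAs took 47.1% to 64.1%. Fold changes are differences in log2(FPKM + 0.5) and understate changes of genes at a few FPKM. A gene was called when its adjusted p from limma, corrected over all 13426 genes, was below 0.05. Tumors of 1 mouse are not independent, so the mouse entered the fit as a block. The estimated correlation within a mouse was -0.0674, so the block did not make the test stricter. In J+V against control 4979 genes were called with it and 4598 without it. With 2 mice per group the p-values mostly measure the spread between these tumors. The lineage genes MITF and SOX10 were expressed in all tumors, whereas DCT was listed at 0 throughout and PMEL and TYR were near 0.

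The promoters of 7 of the 10 members were found in the RefSeq promoter table (assembly GRCh38.p14), each with 1 exact match in GRCh37, the build of the deposited values. AURKA, TTK and BUB3 had no entry. Those of 5 members are shown here, because PLK1, CDCA8, BUB1B and INCENP hold a CHR motif just before the start, whereas BUB1 holds CCAAT boxes without it. AURKB, not shown, also holds a CCAAT box without it. Whether these motifs bear on the fold changes was not tested. The starts are those of RefSeq, while gene positions given with the members are those of GENCODE in GRCh37, which begin upstream of the RefSeq start in PLK1, BUB1B, INCENP and CDCA8, so that in these 4 the stretch lies wholly (PLK1) or partly inside the annotated gene. Each line gives the 120 bases before the transcription start in GRCh37, 5′ to 3′ on the strand of the gene, with capitals marking the CHR, TTTGAA, and the CCAAT box on either strand, which reads ATTGG where it lies on the other strand.
PLK1 (chr16:23690090-23690209, plus strand): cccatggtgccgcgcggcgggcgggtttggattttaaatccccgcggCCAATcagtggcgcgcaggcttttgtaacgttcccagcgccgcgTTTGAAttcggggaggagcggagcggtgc
CDCA8 (chr1:38158068-38158187, plus strand): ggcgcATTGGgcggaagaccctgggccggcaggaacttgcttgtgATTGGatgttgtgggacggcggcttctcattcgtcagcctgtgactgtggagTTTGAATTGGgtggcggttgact
BUB1B (chr15:40453150-40453269, plus strand): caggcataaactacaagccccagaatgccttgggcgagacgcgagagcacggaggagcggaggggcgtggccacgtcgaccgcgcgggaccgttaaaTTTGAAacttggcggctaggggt
INCENP (chr11:61891363-61891482, plus strand): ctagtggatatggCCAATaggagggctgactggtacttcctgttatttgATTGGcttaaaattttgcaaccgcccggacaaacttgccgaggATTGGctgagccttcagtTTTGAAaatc
BUB1 (chr2:111435641-111435760, minus strand): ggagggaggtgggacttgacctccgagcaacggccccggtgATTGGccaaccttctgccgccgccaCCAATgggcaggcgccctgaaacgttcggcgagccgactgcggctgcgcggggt

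Over the full 300-base window of the table (250 bases before to 50 after the start, both strands), TTTGAA was found in 5 of the 7 member promoters and in 15.4% of all 27305 promoters. In PLK1 it lay at -29 to -24, in BUB1B and CDCA8 at -23 to -18, in INCENP at -10 to -5, and in MAD2L1 downstream of the start, at 25 to 30. CCAAT was found in 6 of the 7 and in 35.7% of all promoters, and both motifs were found together in 4 of the 7 and in 6.08% of all promoters. In CDCA8 the last base of TTTGAA is also the first base of a CCAAT box read on the opposite strand. The CHR variant TTTAAA occurred in 1 member (PLK1) and in 12.3% of all promoters. Of the E2F motifs, TTGGCGC was found in 0 members and in 3.12% of all promoters. TTCCCGC was found in 0 members and in 6.56%. TTCGCGC was found in 1 member (MAD2L1) and in 2.30% of all promoters. A match is a description of these letters and does not show a bound site.

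In the J+V tumors all 10 transcripts fell against control. The decreases ran from 4.12-fold for PLK1 to 1.22-fold for BUB3, and the median log2 fold change of the members was -1.30, beside -0.025 for all genes tested. Of all genes tested, 20.5% fell in this comparison (37.1% changed in either direction), so the count of 10 of 10 members stands well above the share of the table. Scaling each tumor to a common FPKM sum moved the median of all genes to -0.22 and the share of decreases among all calls from 55.4% to 85.3%, and all 10 members still fell, beside 35.2% of all genes. For 9 members all 4 J+V tumors were below all 4 controls, as for 16.4% of all genes, and for 8 they were below all 12 other tumors, as for 6.09% of all genes. Neither drug alone gave a call for any member. In bulk tumors, fewer cells that express a gene and less RNA per cell cannot be told apart.

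**Figure D1:**
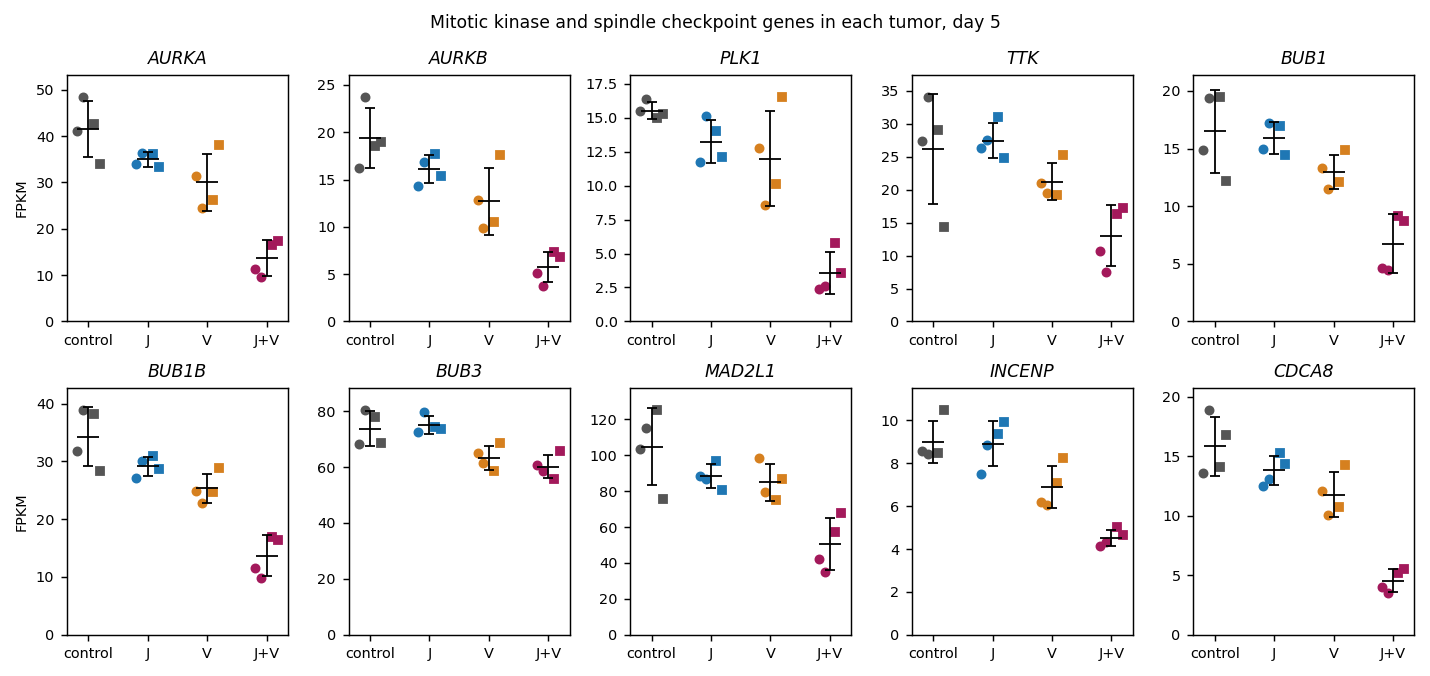
FPKM (vertical axis, linear from 0) of each of the 10 genes in the 16 tumors, by group (control, J, V, J+V). Circles and squares are the tumors of the first and the second mouse of a group, and bars give the mean ± SD over 4 tumors. The J+V tumors lie below all 12 others for 8 genes, the exceptions being TTK and BUB3.

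Among the mitotic kinases, AURKA (chr20:54944445-54967393, minus strand, GRCh37) is the centrosomal Aurora kinase that matures spindle poles. Its level was 41.1 and 48.4 FPKM in mouse 2 and 42.6 and 33.99 FPKM in mouse 5 of the control group, against 11.4 and 9.56 FPKM in mouse 33 and 16.4 and 17.4 FPKM in mouse 34 of the J+V group. The J tumors had 33.9, 36.4, 36.2 and 33.3 FPKM and the V tumors 31.3, 24.5, 26.1 and 38.1 FPKM. The highest J+V tumor thus stayed below the lowest of the other 12, while J and V overlapped control. The mean fell from 41.5 ± 5.94 to 13.7 ± 3.81 FPKM (SD, n = 4), a log2 fold change of -1.60 (SE 0.17, adjusted p = 3.2e-05) in limma, or 3.02-fold. AURKA was also measured by qPCR in the study, which makes it a gene the study had picked for these tumors.

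PLK1 (chr16:23688977-23701688, plus strand), the Polo-like kinase that triggers mitotic entry and centrosome maturation, had the largest decrease of the 10. Control tumors held 15.5 and 16.4 FPKM in mouse 2 and 15.00 and 15.2 FPKM in mouse 5, the least spread of any member in that group relative to its level. In the J+V group the values were 2.38 and 2.61 FPKM in mouse 33 and 5.77 and 3.57 FPKM in mouse 34. J tumors had 11.7, 15.1, 14.02 and 12.1 FPKM, and V tumors had 12.8, 8.55, 10.1 and 16.5 FPKM, with the right tumor of mouse 19 above every control tumor. From 15.5 ± 0.608 in control, PLK1 dropped to 3.58 ± 1.55 FPKM in J+V, 23.1% of the control mean, with a log2 fold change of -2.04 (SE 0.21, adjusted p = 2.78e-05). No J+V tumor reached the lowest of the other 12 (8.55 FPKM).

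TTK (chr6:80713604-80752244, plus strand), also called MPS1, is the kinase that starts checkpoint signalling at unattached kinetochores. It was at 27.4 and 34.1 FPKM in mouse 2 and 28.99 and 14.4 FPKM in mouse 5 of the control group and at 10.7 and 7.58 FPKM in mouse 33 and 16.4 and 17.3 FPKM in mouse 34 of the J+V group. Values of 26.3, 27.6, 30.98 and 24.8 FPKM in J and of 21.1, 19.4, 19.2 and 25.3 FPKM in V lay among those of control. The right tumor of control mouse 5 was lower than both tumors of J+V mouse 34, so the groups overlapped. TTK fell with a log2 fold change of -0.99 (SE 0.25, adjusted p = 0.00632), and the call was lost without control mouse 2 (adjusted p = 0.0651) or without J+V mouse 33 (adjusted p = 0.0965).

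The chromosomal passenger complex was represented by its kinase AURKB (chr17:8108051-8113918, minus strand), its scaffold INCENP (chr11:61891470-61920641, plus strand), and CDCA8 or borealin (chr1:38158153-38175391, plus strand), which helps to target the complex to centromeres. AURKB was at 16.2 and 23.7 FPKM in mouse 2 and 18.5 and 19.00 FPKM in mouse 5 under vehicle and at 5.13 and 3.74 FPKM in mouse 33 and 7.31 and 6.84 FPKM in mouse 34 under both drugs. J tumors had 14.4, 16.9, 17.7 and 15.4 FPKM and V tumors 12.8, 9.84, 10.5 and 17.6 FPKM. The J+V tumors were below all others, and the decrease was 3.24-fold, a log2 fold change of -1.69 (SE 0.19, adjusted p = 3.8e-05). CDCA8 followed almost the same course. It was at 13.6 and 18.9 FPKM in mouse 2 and 14.1 and 16.8 FPKM in mouse 5 of the control group and at 4.02 and 3.49 FPKM in mouse 33 and 5.19 and 5.51 FPKM in mouse 34 of the J+V group. Single-drug tumors held 12.5, 13.1, 15.3 and 14.4 FPKM (J) and 12.1, 10.05, 10.7 and 14.3 FPKM (V), which was 87.2% and 74.4% of the control mean. The decrease in J+V was 3.25-fold, a log2 fold change of -1.70 (SE 0.14, adjusted p = 1.91e-05), with no overlap with any other tumor.

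INCENP had a smaller fold change than AURKB. Control tumors had 8.59 and 8.45 FPKM in mouse 2 and 8.48 and 10.5 FPKM in mouse 5, and J+V tumors had 4.15 and 4.34 FPKM in mouse 33 and 5.01 and 4.64 FPKM in mouse 34. In J the values were 7.50, 8.84, 9.36 and 9.94 FPKM and in V 6.21, 6.06, 7.06 and 8.24 FPKM, so that V lay below control without overlap while J did not. Against control the log2 fold change in J+V was -0.91 (SE 0.11, adjusted p = 5.08e-05), and the 4 J+V tumors, within 4.15 to 5.01 FPKM, were below all others.

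Of the checkpoint proteins, BUB1 (chr2:111395105-111435640, minus strand) is a kinase that recruits other checkpoint components to kinetochores. Its transcript was at 14.9 and 19.4 FPKM in mouse 2 and 19.5 and 12.2 FPKM in mouse 5 of the control group and at 4.67 and 4.44 FPKM in mouse 33 and 9.17 and 8.71 FPKM in mouse 34 of the J+V group. J tumors had 14.98, 17.2, 16.99 and 14.4 FPKM and V tumors 13.3, 11.5, 12.1 and 14.9 FPKM. Every J+V tumor was below every other tumor, and the log2 fold change was -1.27 (SE 0.21, adjusted p = 0.000407). BUB1 was also among the genes the study listed from these tumors. BUB1B (chr15:40453224-40513324, plus strand) encodes BUBR1, part of the mitotic checkpoint complex. It was at 31.8 and 38.8 FPKM in mouse 2 and 38.2 and 28.3 FPKM in mouse 5 in control and at 11.5 and 9.77 FPKM in mouse 33 and 16.9 and 16.5 FPKM in mouse 34 in J+V. The single-drug tumors, at 27.1, 30.01, 30.9 and 28.7 FPKM in J and 24.9, 22.8, 24.8 and 28.8 FPKM in V, had means between those of control and J+V. In J+V it fell 2.50-fold, a log2 fold change of -1.32 (SE 0.15, adjusted p = 4.06e-05), again with no overlap.

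MAD2L1 (chr4:120976778-120988013, minus strand), the MAD2 protein that captures CDC20, was the most abundant member in control. Its control values were 103 and 115 FPKM in mouse 2 and 125 and 75.7 FPKM in mouse 5, and its J+V values were 42.4 and 34.9 FPKM in mouse 33 and 57.2 and 67.7 FPKM in mouse 34. It was at 88.4, 86.98, 96.9 and 80.5 FPKM in J and at 98.6, 79.5, 75.1 and 86.9 FPKM in V, overlapping control in both. All J+V tumors were below the other 12, and the log2 fold change was -1.06 (SE 0.18, adjusted p = 0.00054). Beside BUB1, the study listed a decreased gene printed as MUD2L1, taken here as MAD2L1.

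BUB3 (chr10:124913918-124929983, plus strand), the adaptor that brings BUB1 and BUB1B to kinetochores, changed least. It was at 68.2 and 80.3 FPKM in mouse 2 and 77.8 and 68.6 FPKM in mouse 5 of the control group and at 60.9 and 58.4 FPKM in mouse 33 and 55.9 and 65.6 FPKM in mouse 34 of the J+V group. J tumors were at 72.7, 79.6, 74.2 and 73.7 FPKM and V tumors at 64.9, 61.4, 58.4 and 68.5 FPKM, and V and J+V overlapped. BUB3 fell with a log2 fold change of -0.29 (SE 0.071, adjusted p = 0.00584), to 81.6% of the control mean. This value moved with the scaling of the tumors: it was -0.51 when each tumor was scaled to the same sum and -0.17 after quantile normalization, and the call was lost without the left tumor of control mouse 5 (adjusted p = 0.0581).

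**Figure D2:**
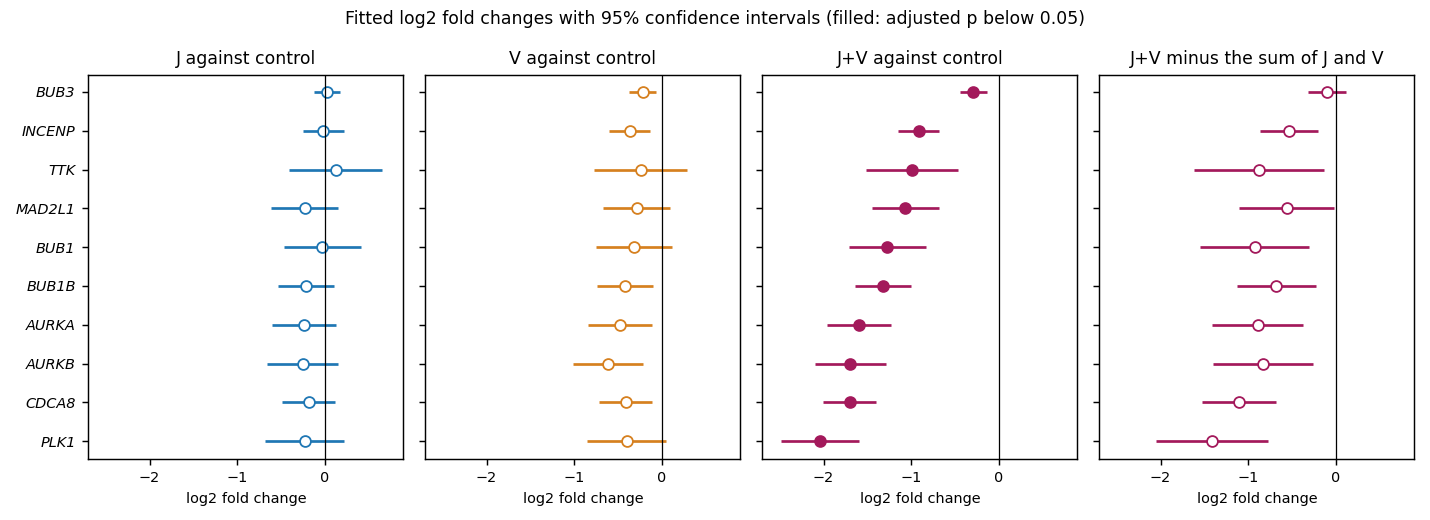
Log2 fold changes (horizontal axis, difference in log2(FPKM + 0.5)) of the 10 genes for J, V and J+V against control, and the difference between J+V and the sum of J and V, with 95% confidence intervals from limma. Filled symbols passed an adjusted p of 0.05. All 10 filled symbols belong to J+V against control, from -2.04 for PLK1 to -0.29 for BUB3.

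With JQ1 alone no member passed the test in limma, none had an unadjusted p below 0.05, and 0% of all genes tested were called in either direction (1140 genes had an unadjusted p below 0.05). The log2 fold changes lay between -0.25 (AURKB) and 0.13 (TTK), with adjusted p of 0.759 or more. The 95% interval was -0.66 to 0.15 for AURKB, -0.68 to 0.22 for PLK1 and -0.25 to 0.22 for INCENP. The J mice were also the most alike: the median distance between the mice of the group was 0.0397 on the log2 scale over the members.

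With vemurafenib alone no member passed either, again with 0% of all genes called (2160 had an unadjusted p below 0.05). All 10 log2 fold changes were below 0, from -0.61 for AURKB to -0.22 for BUB3, with a median of -0.38 beside 0.0055 for all genes. There were 6 members (AURKA, AURKB, BUB1B, BUB3, INCENP and CDCA8) with an unadjusted p below 0.05 and an adjusted p between 0.166 and 0.208. INCENP was the 1 member whose V tumors all lay below control, where 1.99% of all genes tested did so. The share of 0% called for the single drugs depended on single tumors. Without the right tumor of control mouse 5, 423 genes were called in V and 101 in J, with no member among them. Between the single drugs no member was called (0.283% of all genes were). The difference of J minus V was 0.25 (SE 0.071, adjusted p = 0.175) for BUB3.

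Against each drug alone, J+V was again lower. All 10 members fell against J, where 18.4% of all genes tested fell, with log2 fold changes from -1.81 (PLK1, adjusted p = 0.00014) to -0.32 (BUB3, adjusted p = 0.00529). In every member the 4 J+V tumors were below the 4 J tumors, which held for 22.2% of all genes. Without J+V mouse 33 the calls against J were lost for TTK (adjusted p = 0.0707) and MAD2L1 (adjusted p = 0.0544), without J mouse 29 for TTK (adjusted p = 0.0536) and without J mouse 26 for BUB3 (adjusted p = 0.0602).

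Of the 10 members, 8 fell against V, where 8.31% of all genes tested fell. PLK1 fell with a log2 fold change of -1.64 (SE 0.21, adjusted p = 0.00087), CDCA8 with -1.29 (SE 0.14, adjusted p = 0.000556), AURKA with -1.12 (SE 0.17, adjusted p = 0.00143) and AURKB with -1.08 (SE 0.19, adjusted p = 0.00325). All members but BUB3 had no overlap between J+V and V, 9 in all, beside 9.15% of all genes. Smaller decreases were found for BUB1 (-0.96), BUB1B (-0.90), MAD2L1 (-0.78) and INCENP (-0.55), with adjusted p up to 0.0122. TTK, at -0.75 (SE 0.25, adjusted p = 0.0575), and BUB3, at -0.072 (SE 0.071, adjusted p = 0.525) with a 95% interval of -0.22 to 0.08, did not pass. TTK did pass when tumors were scaled to a common sum (adjusted p = 0.0316). This count rested more on single mice than the others. It was 5 without J+V mouse 33 (1.65% of all genes fell then), 5 without V mouse 19 (in both cases BUB1, MAD2L1 and INCENP were lost, 1.94%), and 2 (PLK1 and CDCA8) when the 2 tumors of each mouse were averaged first (0.976%). At the thresholds of the study's methods, which add a fold above 2 and an unadjusted p below 0.01 but allow an adjusted p of up to 0.1, 7 members fell in J+V against control, 7 against J and 4 against V, beside 2.38%, 2.28% and 0.909% of all genes that fell.

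The comparisons with control share the 4 control tumors, so their values are given side by side. Adding the log2 fold changes of J and V gave -0.63 for PLK1, where -2.04 was measured in J+V. The corresponding values were -0.59 and -1.70 for CDCA8, -0.71 and -1.60 for AURKA, and -0.19 and -0.29 for BUB3. All 10 members were lower in J+V than this sum, with a median departure of -0.85. Most genes tested were lower than their sum too, with a median of -0.071, and BUB3, at -0.10, lay close to that. The departure from the sum was tested in the same limma fit and no member passed, with 0% of all genes called. PLK1 departed from the sum by -1.41 (SE 0.30, adjusted p = 0.0997) and CDCA8 by -1.11 (SE 0.20, adjusted p = 0.0981). At the thresholds of the study's methods, which allow an adjusted p of up to 0.1, 2 members, PLK1 and CDCA8, were below the sum, as were 0.164% of all genes. All members but BUB3, 9 in all, had an unadjusted p below 0.05, as did 1693 of the 13426 genes. With the same test and J+V mouse 34 left out, 8 members were called (2.35% of all genes were then lower), and with its left tumor left out 2 were (0.760%). With J+V mouse 33 left out instead, 0 members were called (0.0223%), and the departure was -1.04 for PLK1 and -0.21 for MAD2L1. From the mean of the tumors of each mouse the count was 0 as well (0.00745%).

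**Figure D3:**
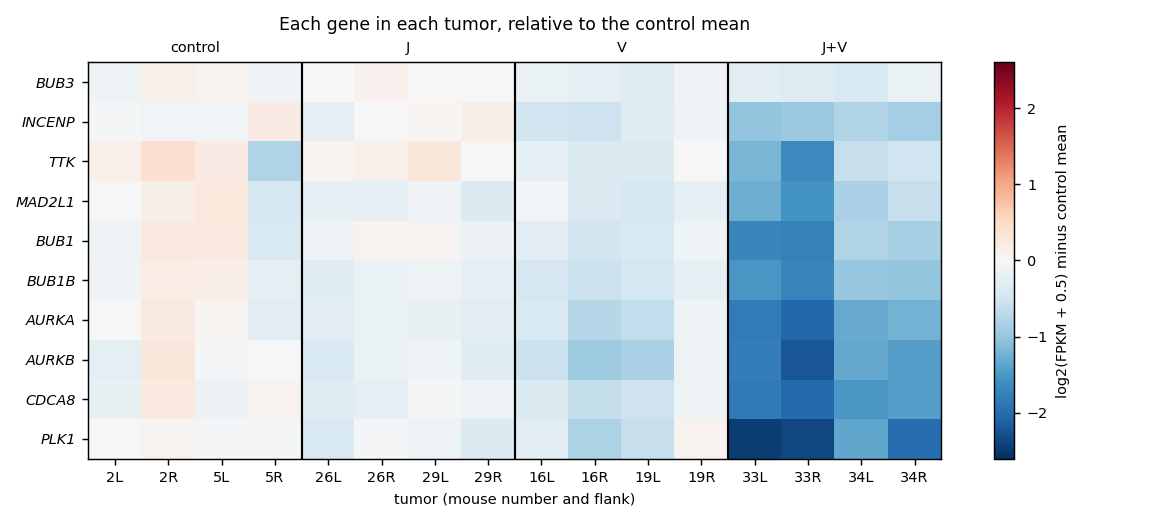
Difference of each tumor (columns, by group and mouse) from the control mean in log2(FPKM + 0.5) for the 10 genes (rows), on a colour scale centred at 0. The J+V columns are the lowest for most genes, mouse 33 below mouse 34, while the BUB3 row changes little.

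The 2 mice of the J+V group lay apart. Both tumors of mouse 33 were below both tumors of mouse 34 for 9 members, all but BUB3, which was the case for 21.2% of all genes tested. The gap between the mice on the log2 scale was -0.90 for BUB1, -0.86 for TTK, -0.75 for PLK1 and -0.021 for BUB3, with a median of 0.651 in size over the members. The median gap was 0.116 in control, 0.0397 in J and 0.160 in V. Against control, PLK1 fell with a log2 fold change of -2.42 with mouse 33 as the only J+V mouse and of -1.66 with mouse 34 as the only one. For BUB1 these values were -1.72 and -0.82, and for TTK -1.42 and -0.56. Small RNAs took 62.7% and 64.1% of the FPKM sum in mouse 33 and 59.8% and 57.6% in mouse 34, and the part of this in the gap was not tested.

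The balance between partners was compared within each tumor, where scaling cancels apart from the pseudocount. BUB1 and BUB1B both act bound to BUB3. The log2 difference of BUB1 minus BUB3 was -2.15 ± 0.21 in control, -2.21 ± 0.093 in J, -2.25 ± 0.084 in V and -3.13 ± 0.52 in J+V (SD, n = 4). Put as a ratio of FPKM, BUB3 stood at 4.59 ± 0.744 times BUB1 in control and at 9.95 ± 3.68 times in J+V. BUB1B minus BUB3 shifted likewise, from -1.10 ± 0.11 in control to -2.13 ± 0.37 in J+V.

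Within the passenger complex, the scaffold fell less than the kinase. INCENP minus AURKB was -1.06 ± 0.28 in control, -0.82 ± 0.14 in J, -0.81 ± 0.25 in V and -0.28 ± 0.33 in J+V, and the FPKM ratio of INCENP to AURKB went from 0.474 ± 0.0879 to 0.833 ± 0.225. For each of these 3 pairs the J+V tumors did not overlap control, J or V, and each of the 9 exact permutation tests (two-sided, 4 against 4 tumors) gave p = 0.0286, the smallest such a test allows, and 0.0476 after adjustment over all 15 tests. The separation was narrow for INCENP minus AURKB against V, with -0.515 in the lowest J+V tumor and -0.540 in the highest V tumor. These shifts follow from the fold changes given above, and pairs of genes outside the set were not compared. The adjusted p of these tests stays below 0.05 only while all 9 sit at that smallest value. With any 1 tumor left out none of the 15 passed, which need not mean smaller differences. The tumors of a mouse count as separate in this test, and 2 against 2 mice allow no p below 0.05. AURKA minus AURKB differed by 0.10 between J+V and control (exact permutation p = 0.486), and CDCA8 minus AURKB by -0.0072 (exact permutation p = 1), a value that turned to 0.0078 with a pseudocount of 1.

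**Figure D4:**
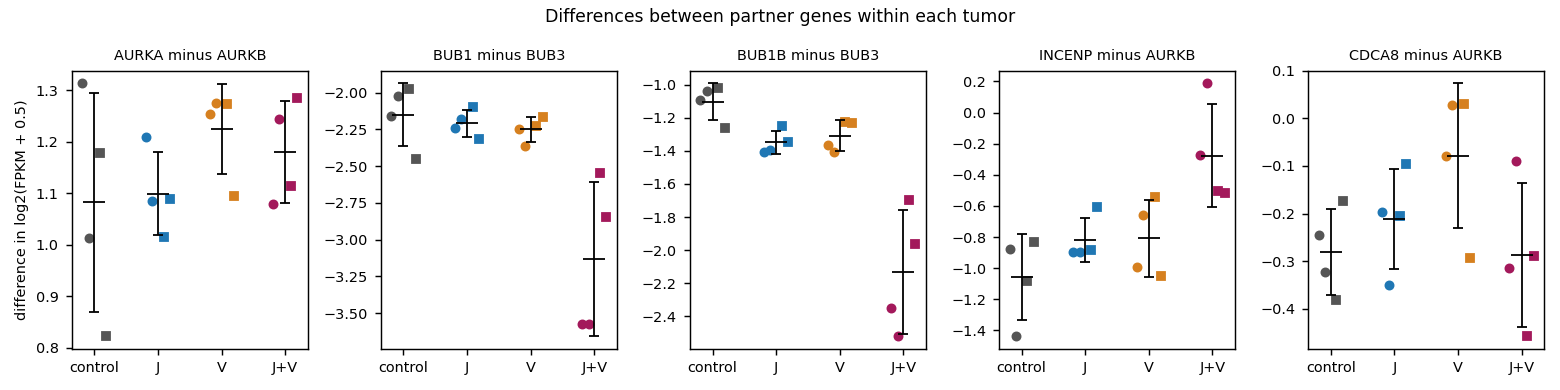
Within-tumor differences in log2(FPKM + 0.5) between partner genes (vertical axis) for the 4 groups. Circles and squares are the tumors of the first and second mouse of a group, and bars give the mean ± SD. BUB1 and BUB1B dropped relative to BUB3 in J+V and INCENP rose relative to AURKB, while AURKA and CDCA8 had overlapping values relative to AURKB.

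The order of the members by level changed as well. In control MAD2L1 led with 105 ± 21.3 FPKM, followed by BUB3 (73.7 ± 6.25), AURKA and BUB1B, and INCENP was last. BUB1, CDCA8 and PLK1, at 16.5 ± 3.60, 15.8 ± 2.45 and 15.5 ± 0.608 FPKM, did not differ beyond their spread. In J+V, BUB3 was first, with 34.1% of the summed FPKM of the 10 genes, against 20.7% in control, and PLK1 was last, with 2.03% against 4.35%. This order did not hold in every tumor. In mouse 34 MAD2L1 was still above BUB3, at 57.2 and 67.7 FPKM against 55.9 and 65.6, and in its left tumor PLK1 (5.77 FPKM) was above INCENP (5.01) and CDCA8 (5.19). AURKA and BUB1B had the same J+V mean to 3 digits, and INCENP and CDCA8 differed by less than their SD there.

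Other genes of the pathway were read from lists chosen by function. In J+V against control, 49 of the 72 kept genes of 5 lists were called, 44 lower and 5 higher, beside 37.1% of all genes called in either direction and 20.5% lower. Of 15 other mitotic kinases, 9 fell and 2 rose, with a median log2 fold change of -0.68. MELK, a kinase abundant in dividing cells, went from 37.6 ± 4.40 to 14.9 ± 3.90 FPKM (-1.34, adjusted p = 3.8e-05). PBK, a kinase active in mitosis, had a log2 fold change of -1.26, and CIT, which acts in cytokinesis, one of -1.26. Both rising kinases are named after their values were seen. PLK2, a stress-inducible Polo-like kinase, rose from 30.5 ± 7.60 to 62.4 ± 1.12 FPKM (1.05, adjusted p = 9.77e-05), with 39.05 ± 3.28 in J and 30.00 ± 4.94 in V. NEK9, which activates other NEK kinases, rose by 0.42.

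Activators and partners of these kinases fell in 9 of 12 cases and rose in none (median -1.28). BIRC5, or survivin, the passenger subunit that holds CDCA8 and INCENP together, went from 27.01 ± 4.25 to 7.67 ± 2.20 FPKM (-1.78, adjusted p = 3.31e-05). The study had already listed BIRC5 as decreased in these tumors. The log2 fold change was -1.70 for the mitotic cyclin CCNB2 and -1.62 for PRC1, which bundles midzone microtubules. Of 15 other spindle checkpoint genes, 11 fell and none rose (median -0.51). CDC20, the activator of the anaphase-promoting complex that MAD2L1 holds back, went from 26.6 ± 4.36 to 7.93 ± 3.13 FPKM (-1.75, adjusted p = 0.000207). The cohesin protector SGOL1 was lower as well (-1.17), and so was the kinetochore scaffold CASC5, also called KNL1 (-0.93).

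Mitotic phosphatases, which remove the marks these kinases place, moved less. Of 19 genes, 9 fell and 2 rose, with a median of -0.17. The decreases included CDCA2, which targets protein phosphatase 1 to chromatin (-1.06), the catalytic subunit PPP1CA (-0.52) and the scaffold PPP2R1B (-0.51). The 2 that rose, named after their values were seen, were the regulatory subunits PPP2R5A (0.25) and PPP2R5E (0.21). Among 11 regulators of mitotic transcription 6 fell and 1 rose. MYBL2 and FOXM1, transcription factors of G2 and M phase genes, had log2 fold changes of -1.84 and -1.36. FOXM1 was among the decreased regulators that the study listed. The pocket protein RBL1 also fell (-0.82), and its relative RBL2, which represses cell cycle genes in resting cells and is named after its value was seen, rose by 0.35. All 14 genes of a proliferation and S phase list fell (median -1.13), among them CDC6 (-1.96), RRM2 (-1.64) and MCM4 (-1.38), and MKI67 went from 26.8 ± 3.36 to 13.9 ± 5.49 FPKM (-0.99, adjusted p = 0.00148). No gene of these 6 lists was called in J or V against control. The study, which tested counts, did report genes changed by the combination and by a single drug as well. Among those decreased it named CCNB1, which is among the listed genes. Against V alone, 7 of the other kinases, 8 of the activators and partners, 5 of the checkpoint genes, 5 of the phosphatases, 4 of the regulators and 12 of the S phase genes fell in J+V, beside 8.31% of all genes. With tumors scaled to a common sum, PLK2 still rose (0.84), whereas NEK9, PPP2R5A, PPP2R5E and RBL2 did not pass.

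Over the 16 tumors, the genes outside the set with the most similar course were the histone H2A gene HIST1H2AM, ORC1, RRM2, CCNB1 and MELK, with Pearson r between 0.990 and 0.992 to the mean of the 10 members, of 8727 genes with a mean of at least 5 FPKM. CCNB1, the mitotic cyclin B1, went from 133 ± 17.8 to 51.4 ± 15.96 FPKM, and ORC1, a subunit of the origin recognition complex, from 9.99 ± 1.37 to 3.56 ± 0.954 FPKM. These correlations describe tumors that share groups, mice and scaling. Among the members, AURKA was closest to the mean of the other 9 (r = 0.996) and BUB3 the farthest (r = 0.772).

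Of the markers of other cell types, those of fibroblasts were the most abundant. The tumor cells were human and the host was mouse, while reads were aligned to the human genome. Expression by A375 cells and stray mouse reads cannot be told apart here, so these sums do not measure host cells. Fibroblast markers summed to 44.3 to 136 FPKM in control, 69.2 to 89.1 in J, 66.9 to 126 in V and 70.96 to 131 in J+V. Of its 8 genes, 3 rose in J+V against control, namely the matrix proteoglycans DCN (1.67) and LUM (1.61) and the growth factor receptor PDGFRB (0.72). Their part in the decreases was not tested. The right tumor of control mouse 5 had the highest fibroblast sum of all tumors, against 44.3 to 51.5 FPKM in the other controls, and also the lowest control values of AURKA, TTK, BUB1, BUB1B and MAD2L1. The same tumor had the highest control value of INCENP (10.5 FPKM) and was not the lowest control for AURKB, PLK1, BUB3 or CDCA8. Without that tumor all 10 members were called in J+V against control (20.2% of all genes fell then). No endothelial marker of 6, 3 of 7 macrophage and leukocyte markers and 1 of 5 keratinocyte markers passed the filter, and none of these was called in J+V against control. Of 6 melanocyte lineage markers that passed, of 10 listed, S100B (1.68) and MLANA (0.55) rose, and with tumors scaled to a common sum MLANA and PDGFRB did not pass.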

How the data were processed

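Total RNA of 16 A375 xenografts was depleted of ribosomal RNA (RiboZero) and made into libraries with ScriptSeq v2. Per the submitters' processing notes and the study's methods, the authors used bcl2fastq, aligned reads to hg19 with TopHat and computed FPKM per gene symbol with Cufflinks. The sources used here give neither tool versions nor the annotation, nor whether mouse reads were removed. The deposited table held these FPKM values, with 1 column for each tumor and no counts, so depth and counting error are unknown. The study itself tested read counts with a count model, which was not done here.

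Groups came from the sample labels. Genes with at least 1 FPKM in at least 4 of 16 tumors were kept, and log2(FPKM + 0.5) was fitted with limma 3.58.1 (R 4.3.3) over all groups, with a trend in the moderation and mouse as a random block (estimated correlation -0.0674). P-values were adjusted over all genes kept (Benjamini-Hochberg, threshold 0.05). The fit was tested on simulated data in which all tumors were drawn independently, so dependence between tumors of a mouse was not covered. Differences between partner genes were compared by exact permutation tests (two-sided, 15 tests). Plots and promoter searches used Python 3.11.15, pandas 2.3.3 and matplotlib 3.10.9.

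The 10 members and all lists were chosen with earlier results of these data known. Named were all members, up to 3 genes per list with the largest absolute change among those called in J+V against control, MKI67 and BIRC5, and the 5 genes closest in course to the members; exceptions are marked. Alternatives covered the pseudocount, the filter, 4 scalings, the block, the samples in the fit, flank, robust moderation, the thresholds of the study, and leaving out each tumor or mouse.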

Additional observations from a re-analysis of the deposited data

Results flagged for a closer look

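In the control group, INCENP in the right tumor of mouse 5 was at 10.5 FPKM, far from the nearest control tumor, at 8.59 FPKM (the gap was 0.932 of the range of the group, above Dixon's 95% critical value for 4 values). Chance alone marks about 1 in 20 groups in this way, and 40 groups of 4 tumors were examined. Without this tumor the log2 fold change of INCENP in J+V against control was -0.84.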

How the results depend on the processing

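Of the 8 counts from the fit, those of members called in J+V against control (9 to 10 with any tumor or mouse left out) and against J (8 to 10) stayed within 1.5 times the reported count under every alternative, and those for J, V and J against V stayed at 0. Against V the count ran from 5 to 9 with a tumor or mouse left out, and was 2 from the mean of the tumors of each mouse and 4 at the thresholds of the study. For the difference between J+V and the added effects of both drugs it ran from 0 to 8 in the same way and was 2 at the thresholds of the study. Other pathway genes called numbered 18 at these thresholds, and 35 to 52 with a tumor or mouse left out. The 9 calls between partner genes became 0 with any tumor left out (0 to 0), and their values kept direction.

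Signs turned only for differences that had not passed their test, the largest being -0.24 for TTK in V against control. With a common sum per tumor, J against control was -0.018 for TTK and -0.12 for BUB3, and J against V was -0.037 for MAD2L1 (-0.039 after quantile normalization). Without small RNAs in the sum, J against control was 0.0029 for BUB1 and 0.017 for INCENP. With tumors or mice left out, J against control spanned -0.16 to 0.41 for TTK, -0.16 to 0.076 for BUB1, -0.0042 to 0.067 for BUB3 and -0.13 to 0.10 for INCENP, V against control -0.52 to 0.043 for TTK, and J against V -0.0089 to 0.13 for MAD2L1. CDCA8 minus AURKB in J+V against control spanned -0.073 to 0.049 and was 0.0078 with a pseudocount of 1. The cause of these changes was not tested. No paired analysis was possible because no mouse received more than 1 treatment. With 2 mice per group and 1 cell line, the spread between mice rests on few animals, and with no counts the precision of low values is unknown.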
